A study of Mus musculus with 9 samples.

Results

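The 35 genes described here encode actins, tropomyosins, subunits of non-muscle myosin II, and the proteins that crosslink actin filaments or fasten them to focal adhesions, together with serum response factor (SRF). They were chosen by symbol, and each symbol matched 1 of the 21959 genes in the deposited table. RNA came from mesenchymal stromal cells of mouse bone marrow, grown as a line whose label reads SV40. They had been exposed for 24 h to peritoneal fluid (PF) or to phosphate-buffered saline, in DMEM/F12 medium with 10% serum in every group. The control PF group received fluid from control mice. The TNBS PF group received fluid from mice given TNBS, a hapten used to induce colitis, for 3 days. The PBS group received phosphate-buffered saline in place of fluid. Each of the 3 groups had 3 libraries. All 9 came from 1 immortalised line, and the labels give neither the strain or age of the mice, nor whether fluid from several mice was pooled, nor whether the libraries of a group were separate cultures. The p-values therefore measure only the spread between these libraries, which may be technical.

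Actin monomers assemble into filaments, which tropomyosins coat, alpha-actinins and filamins crosslink, and non-muscle myosin II pulls on. Bundles of this kind, called stress fibres, end at focal adhesions, where talin, vinculin and zyxin link them to integrins. Many of these genes are activated by SRF. Its coactivators of the MRTF family are held in the cytoplasm by free actin monomers, so that assembly of filaments frees them to enter the nucleus. SRF binds a DNA element called the CArG box. In stromal cells, alpha smooth muscle actin (Acta2) is widely used as a marker of the contractile myofibroblast state.

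Values are FPKM, that is fragments per kilobase of a gene's exons after scaling for library depth, and group values are means ± SD over 3 libraries. The libraries held 17.9 to 25.6 M assigned fragments, and the TNBS PF libraries were the deepest, at 22.9 to 25.6 M against 17.9 to 21.5 M in the other groups. Correlations of log2 values between libraries were 0.996 to 0.998 within a group and 0.994 to 0.996 between groups. The summed level of 12 stromal markers was 1106 to 1130 FPKM in control PF libraries, 1005 to 1038 in TNBS PF libraries and 1132 to 1208 in PBS libraries. T and B cell markers summed to at most 0.149 FPKM in any library. The leukocyte gene Ptprc was listed at 0 in 8 of the 9 libraries and at 0.00306 FPKM in PBS replicate 1. Defining markers of differentiated smooth muscle were near 0: Myh11 had group means of 0.0134 to 0.0265 FPKM and Des of 0.201 to 0.297 FPKM.

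Most of the 35 genes were well expressed in this line. In PBS, 14 of the 35 genes had means of at least 100 FPKM and 4 had means under 10 FPKM. Cytoplasmic beta actin (Actb) had the highest level, 828.1 ± 8.55 FPKM in PBS. It was followed by cytoplasmic gamma actin (Actg1) at 463.0 ± 16.4 FPKM and by the tropomyosin gene Tpm4 at 405.3 ± 14.8 FPKM. The SDs of Actg1 and Tpm4 did not touch. Acta2 came next, at 262.5 ± 3.32 FPKM, above the myosin light chain Myl6 at 228.4 ± 12.6 FPKM. The levels of Cnn3 (189.6 ± 3.77), Flna (183.7 ± 2.73) and Tagln2 (172.4 ± 1.55 FPKM) were neighbours, and the first pair of these overlapped within their SDs.

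Some genes of the smooth muscle programme were at the other end of that scale. Transgelin (Tagln), which is found beside Acta2 in smooth muscle, had only 3 to 12 fragments per library. Its levels were 0.169, 0.0839 and 0.149 FPKM in PBS libraries, 0.152, 0.189 and 0.280 in control PF libraries and 0.1002, 0.236 and 0.263 in TNBS PF libraries, with overlap between all groups. Exons of another annotated gene cover 67.9% of the Tagln exon bases, the labels do not say how such reads were counted, and the part of this overlap in the low value was not tested. Mylk, the kinase that phosphorylates myosin light chains, was at 0.542, 0.558 and 0.660 FPKM in PBS, 0.443, 0.516 and 0.462 in control PF and 0.428, 0.427 and 0.384 in TNBS PF. Every TNBS PF value of Mylk lay below every control PF value, and every control PF value below every PBS value. Tagln and Mylk were below the minimum for testing (1 FPKM in at least 3 libraries) and have no test. The other 33 genes were at 1 FPKM or more in every library. Calponin 1 (Cnn1), a smooth muscle protein, was the lowest of these 33, at 2.59 ± 0.351 FPKM in PBS.

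**Figure D1:**
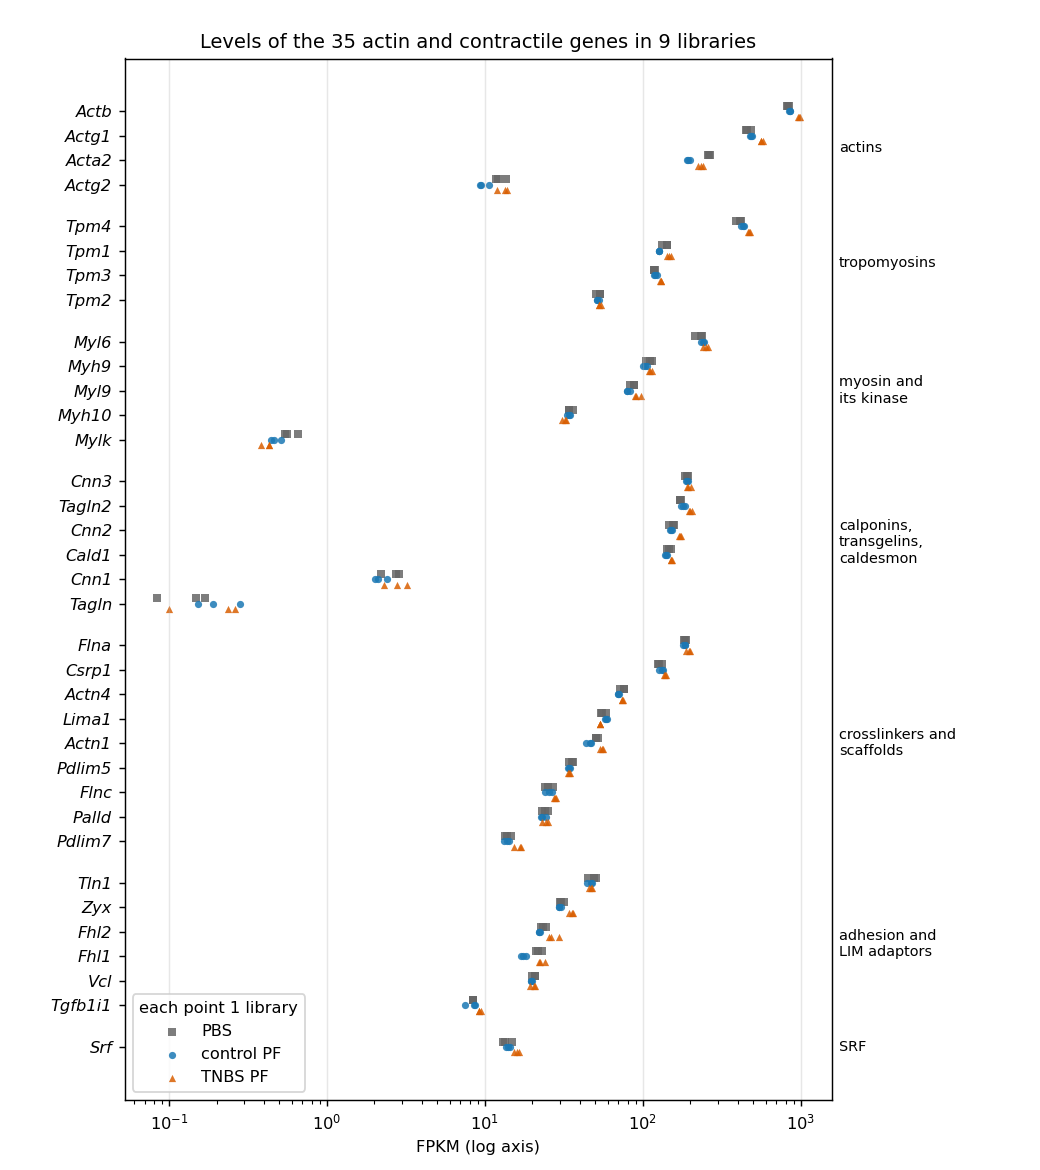
Levels of the 35 genes, with FPKM on a log axis and each point 1 library, coloured by group and arranged by the role of the protein. Actb lies highest in every group at 818.7 to 985.7 FPKM, while Tagln and Mylk lie under 1 FPKM.

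The promoters of these genes held CArG boxes more often than promoters at large. A CArG box was searched as CC, then A or T at 6 positions, then GG, a pattern that reads the same on both strands, in the 250 bases upstream of each RefSeq transcript start (GRCm38.p6). RefSeq starts were at hand for 31 of the 35 genes, with none for Actb, Actg2, Tagln and Tgfb1i1. A box was present in 9 of the 31 genes (29.0%), against 1.62% of 27025 genes with a RefSeq start and 1.4% of those that were tested for expression. The following 50-base stretches, read 5′ to 3′ on the strand of the gene, are shown because they carry these boxes, which are in capitals, and because they lie outside annotated exons. Srf itself has a pair of boxes within the stretch.
Srf, chr17:46556215-46556264, minus strand: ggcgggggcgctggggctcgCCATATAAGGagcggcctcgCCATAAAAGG
Actg1, chr11:120348556-120348605, minus strand: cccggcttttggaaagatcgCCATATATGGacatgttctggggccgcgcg
Cnn2, chr10:79988524-79988573, plus strand: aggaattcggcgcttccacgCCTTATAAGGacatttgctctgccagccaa
Fhl1, chrX:56779561-56779610, plus strand: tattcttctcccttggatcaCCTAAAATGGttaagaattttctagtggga
Fhl2, chr1:43163963-43164012, minus strand: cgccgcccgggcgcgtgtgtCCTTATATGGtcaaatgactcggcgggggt
Lima1, chr15:99820167-99820216, minus strand: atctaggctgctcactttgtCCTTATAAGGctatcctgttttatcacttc
Myl9, chr2:156775283-156775332, plus strand: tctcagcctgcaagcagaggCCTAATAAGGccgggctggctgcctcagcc
Vcl, chr14:20929151-20929200, plus strand: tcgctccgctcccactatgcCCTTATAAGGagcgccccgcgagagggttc

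Cnn2, Lima1 and Vcl carried the same 10 letters in their boxes. The box of Fhl2 began 31 bases before the start, that of Cnn2 56, of Actg1 90, of Fhl1 102 and of Vcl 227 bases before it. Myl6 also had a box, beginning 50 bases before its start, within annotated exon sequence. No CArG match was found in the windows of Acta2 or Tpm1, which says only that the exact pattern is not in those 250 bases. The Acta2 window holds the stretches ccctatatgg and ccttgtttgg, each 1 letter off the pattern, which the search did not count. Near matches in other windows were not searched. A motif known for TEAD factors, GGAATG, searched on both strands, was found in 11 of the 31 genes (35.5%), among them Acta2, Tagln2 and Tpm1, against 14.4% of all genes with a start. Only Vcl had both kinds of match. These matches are descriptions of sequence and not of binding.

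**Figure D2:**
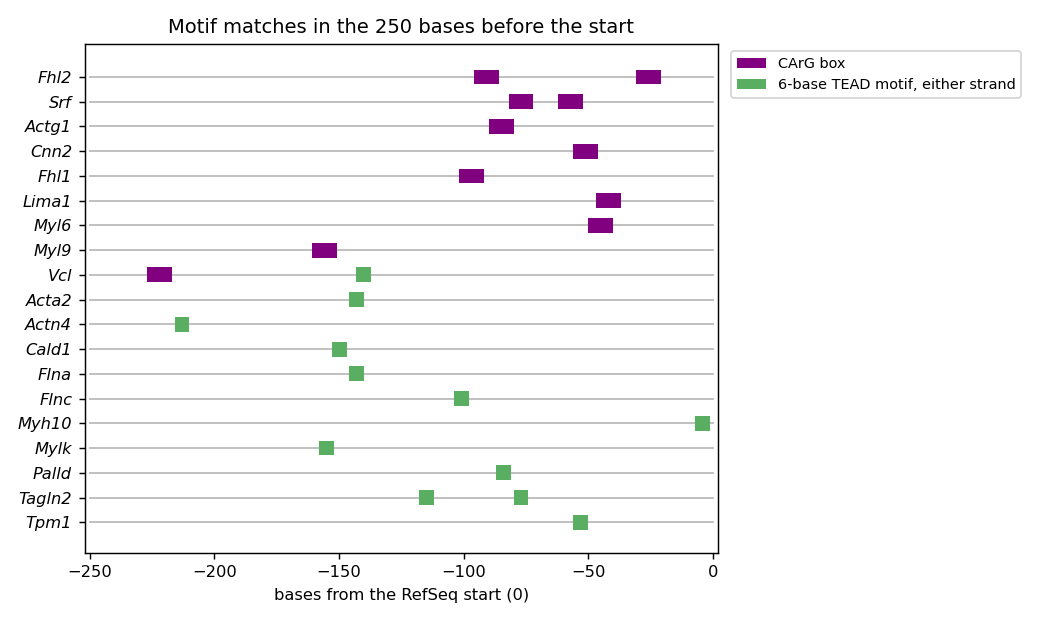
Positions of CArG boxes (purple) and of the 6-base TEAD motif (green) in the 250 bases before the RefSeq start, with the distance from the start in bases on the horizontal axis and 1 line per gene with a match. The 9 genes with CArG boxes are listed first, and Srf and Fhl2 have a pair each, those of Fhl2 belonging to different starts.

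The first question was what fluid from mice with induced colitis changed beyond fluid from control mice. Contractile genes of nearly every role were higher after TNBS PF, each by a small amount. Of the 33 genes tested by limma, 17 rose and 1 fell at an adjusted p under 0.05, that is 51.5% and 3.03%, against 5.15% of all 10537 tested genes that rose and 5.45% that fell. All 3 TNBS PF libraries were above all 3 control PF libraries for 23 of the 33 genes (13.6% of all tested genes) and below them for 2 (18.2% of all tested genes). The median log2 fold change, of FPKM with 1 added, was 0.14 over the 33 genes and -0.01 over all tested genes, and 30 of the 33 fold changes were positive. The genes had been chosen with earlier results of these data known. Under median-ratio scaling, 22 of the 33 genes rose and 1 fell, and the split over all genes moved from 543 higher and 574 lower to 679 higher and 442 lower. The depth of the TNBS PF libraries was also the highest, and its part in these differences was not tested.

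Some markers of the mesothelium, the cell layer that lines the peritoneum, were higher in TNBS PF beside the contractile genes. Of 14 markers, 10 were under the minimum for testing. Of the 4 tested, Msln, Krt18 and Krt19 rose against control PF (75%, against 5.15% of all tested genes). The other, Slpi, was lower in every TNBS PF library than in every control PF library, with means of 4.94 and 6.04 FPKM, and did not pass (log2 fold change -0.25, adjusted p = 0.12). The summed level of the 14 was 52.7 to 57.9 FPKM in TNBS PF libraries, 46.2 to 47.7 in control PF libraries and 47.8 to 48.8 in PBS libraries. Most of that sum was Msln, at 35.6, 42.2 and 38.1 FPKM in control PF, TNBS PF and PBS. Among the defining markers, Muc16 was listed at 0 in every library, and Upk3b and Krt8 had group means of at most 0.0132 and 0.021 FPKM. Wt1, also under the minimum, was at 0.196 to 0.225 FPKM in TNBS PF libraries. That was above its 0.0825 to 0.165 FPKM in control PF and 0.0539 to 0.0874 FPKM in PBS libraries. Macrophage and monocyte markers summed to 14.4 to 18.2 FPKM over all 9 libraries, with overlap between TNBS PF and control PF. Nearly all of this was Cd14, at 14.4, 14.8 and 12.9 FPKM in control PF, TNBS PF and PBS, and Cd68, at 1.64, 1.96 and 1.92 FPKM. Adgre1 and Itgam had group means of at most 0.00519 and 0.00529 FPKM, and Csf1r and Lyz2 of at most 0.209 and 0.207 FPKM. Of the 11 tested stromal markers, 4 fell in TNBS PF against control PF (36.4%, against 5.45% of all tested genes). Another 2 rose (18.2%, against 5.15%). The largest changes were those of Pdgfrb (log2 fold change -0.39), Pdgfra (-0.38), Ly6a (-0.32) and Cd44 (0.21). The part of other cells in the contractile gene levels was not tested. In RNA from a whole culture, a change in the share of cells and a change in RNA per cell cannot be told apart.

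All 4 actin genes rose. For this and the later counts by role or CArG box in this comparison, 5.15% of all tested genes rose and 5.45% fell. Actb (chr5:142903115-142906754 in GRCm38) was at 851.2, 850.3 and 842.0 FPKM in control PF and at 985.7, 958.9 and 978.9 FPKM in TNBS PF, with no overlap. Its mean rose by 14.9%, a log2 fold change of 0.20 ± 0.03 (SE, adjusted p = 5.07e-04). Actg1 was at 480.9, 493.8 and 479.7 FPKM in control PF and at 563.3, 558.9 and 575.7 FPKM in TNBS PF. The TNBS PF libraries were again all higher, and the log2 fold change was 0.22 ± 0.03 (adjusted p = 6.24e-04). Actg1 shares 56.7% of its 50-base transcript stretches with other genes, mostly with the processed pseudogene Gm12715, and 1.58% with Actb. Actb shares 14.2% of its stretches with other genes, 9.57% with Lrrc58. The level of Actg1 is therefore the less certain of the pair.

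Acta2 (chr19:34241090-34255590), the smooth muscle alpha actin, was at 199.0, 193.5 and 191.4 FPKM in control PF and at 223.1, 232.1 and 241.1 FPKM in TNBS PF. The TNBS PF libraries were all higher, by 19.3% in the mean, with a log2 fold change of 0.25 ± 0.03 (adjusted p = 3.00e-04). Actg2, the gamma actin of visceral smooth muscle, was at 9.42, 9.36 and 10.6 FPKM in control PF and at 11.9, 13.4 and 13.7 FPKM in TNBS PF. It had the largest log2 fold change of the 33 genes in this comparison, 0.37 ± 0.07 (adjusted p = 0.00297), at a level far below that of Acta2. Only 0.352% of the 50-base stretches of Acta2 and none of those of Actg2 occur in transcripts of other genes.

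Of the tropomyosin genes, whose products stabilise filaments and set which myosins and severing proteins can bind them, 3 of 4 rose. Tpm1 was at 127.2, 127.2 and 126.6 FPKM in control PF and at 146.4, 142.2 and 149.8 FPKM in TNBS PF, higher by 0.20 ± 0.03 on the log2 scale (adjusted p = 0.00151). The control PF libraries of Tpm1 were nearly equal, and all TNBS PF libraries were higher. Tpm4 went from 428.0 ± 7.78 to 470.5 ± 7.06 FPKM (log2 fold change 0.14, adjusted p = 0.0152). Tpm3 went from 120.2 ± 2.68 to 129.4 ± 1.16 FPKM (0.11 on the log2 scale, adjusted p = 0.0245), and 62.4% of its 50-base stretches occur in other genes, most of them in the near copy Tpm3-rs7. Tpm2 was at 51.7 ± 0.934 and 53.3 ± 0.868 FPKM and did not pass the test (adjusted p = 0.43). The calls of Tpm3 and Tpm4 were lost in some of the 18 alternative analyses, where their adjusted p-values reached 0.0919 and 0.0669.

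Of the 4 tested myosin genes, 1 rose. Myl9, the regulatory light chain that Mylk phosphorylates, went from 80.7 ± 1.81 to 92.5 ± 4.69 FPKM (log2 fold change 0.19, adjusted p = 0.00547). The essential light chain Myl6 had 238.3 ± 4.9 and 249.9 ± 9.13 FPKM and did not pass (adjusted p = 0.325). The heavy chains of non-muscle myosin II pointed in opposite directions without passing: the log2 fold change was 0.11 for Myh9 (adjusted p = 0.0722) and -0.08 for Myh10 (adjusted p = 0.168). As a share of the summed FPKM of the non-muscle heavy chain genes, Myh10 took 24.4 to 24.9% in control PF libraries and 21.9 to 22.8% in TNBS PF libraries.

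Among the calponin-like and caldesmon genes, whose products bind along filaments and modulate myosin, 3 of 5 tested genes rose. Tagln2, the transgelin of non-muscle cells, was at 183.5, 178.6 and 173.8 FPKM in control PF and at 197.3, 199.7 and 204.1 FPKM in TNBS PF (log2 fold change 0.16, adjusted p = 0.00259). Cnn2 went from 151.1 ± 2.09 to 170.8 ± 2.44 FPKM (0.18 on the log2 scale, adjusted p = 0.003) and Cald1, caldesmon, from 139.6 ± 1.48 to 150.9 ± 0.963 FPKM (0.11, adjusted p = 0.0172). Cnn1, at its low level, had a difference of 0.24 on the log2 scale and did not pass (adjusted p = 0.135). Cnn3 had one of 0.03 (adjusted p = 0.615). The call of Cald1 was lost in some alternatives, with an adjusted p of up to 0.0701.

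Of the 9 crosslinkers and stress fibre scaffolds, 2 rose and 1 fell. Actn1, the alpha-actinin of stress fibres (chr12:80167547-80260371), was at 43.5, 46.3 and 46.8 FPKM in control PF and at 55.1, 53.9 and 55.6 FPKM in TNBS PF. All TNBS PF libraries were higher, with a log2 fold change of 0.26 ± 0.03 (adjusted p = 3.31e-04). Pdlim7, a scaffold with PDZ and LIM domains that binds actin-associated proteins, was at 13.2, 13.7 and 14.2 FPKM in control PF and at 15.3, 16.6 and 16.8 FPKM in TNBS PF (log2 fold change 0.23 ± 0.05, adjusted p = 0.00816). Lima1, which crosslinks and stabilises filaments, was the gene that fell.

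Lima1 was at 57.8, 59.0 and 58.7 FPKM in control PF and at 53.5, 53.4 and 53.7 FPKM in TNBS PF, which gave -0.13 ± 0.03 on the log2 scale (adjusted p = 0.0234). The groups did not overlap, and the TNBS PF libraries were nearly equal. The call was lost without control PF replicate 2 (adjusted p = 0.0796), control PF replicate 3 (0.0682) or TNBS PF replicate 1 (0.0701), 2 (0.0741) or 3 (0.0672). The filamin genes Flna and Flnc, which crosslink filaments into networks, had log2 fold changes of 0.08 and 0.13 with adjusted p-values of 0.0876 and 0.0881. Actn4 (0.08), Csrp1 (0.07), Palld (0.04) and Pdlim5 (0.00 on the log2 scale) did not pass either.

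Of the 6 genes of focal adhesions and LIM adaptors, 3 rose. The structural links between integrins and actin had small values: for talin 1 (Tln1) the log2 fold change was 0.01 (adjusted p = 0.918), and for vinculin (Vcl) 0.03 (adjusted p = 0.662). The LIM-domain proteins zyxin, Fhl1 and Fhl2, which shuttle between adhesions or fibres and the nucleus, rose. Zyx was at 29.5, 29.5 and 30.3 FPKM in control PF and at 35.3, 34.0 and 35.9 FPKM in TNBS PF (log2 fold change 0.23 ± 0.03, adjusted p = 0.00112). Fhl1 was at 17.5, 18.2 and 17.0 FPKM in control PF and at 22.3, 22.0 and 24.0 FPKM in TNBS PF, a rise of 29.9% in the mean (log2 fold change 0.36 ± 0.04, adjusted p = 2.95e-04). Fhl2 was at 22.1, 22.3 and 21.9 FPKM in control PF and at 26.1, 29.5 and 25.6 FPKM in TNBS PF (log2 fold change 0.28 ± 0.05, adjusted p = 0.00278). In each of these 3 genes all TNBS PF libraries lay above all control PF libraries. Tgfb1i1, a paxillin relative also called Hic-5, was at 8.20 ± 0.629 and 9.29 ± 0.15 FPKM, short of the threshold (adjusted p = 0.0583).

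Srf itself was at 13.6, 14.0 and 14.5 FPKM in control PF and at 15.2, 15.9 and 16.5 FPKM in TNBS PF. The groups did not overlap, and the log2 fold change of 0.16 ± 0.05 passed narrowly (adjusted p = 0.0497). The call was lost in 11 of the 18 alternatives, including the omission of any control PF or TNBS PF library, with an adjusted p of up to 0.171. Of the 9 genes with a CArG box, 6 rose (Actg1, Cnn2, Fhl1, Fhl2, Myl9 and Srf), Lima1 fell, and Myl6 and Vcl did not pass. Of the 21 tested genes with a RefSeq start and no exact match, 9 rose. The median log2 fold change of the 21 was 0.11, against 0.18 for the 9 genes with a box. The 21 include Acta2, whose window holds near matches that the search did not count. The difference between these sets was not tested.

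**Figure D3:**
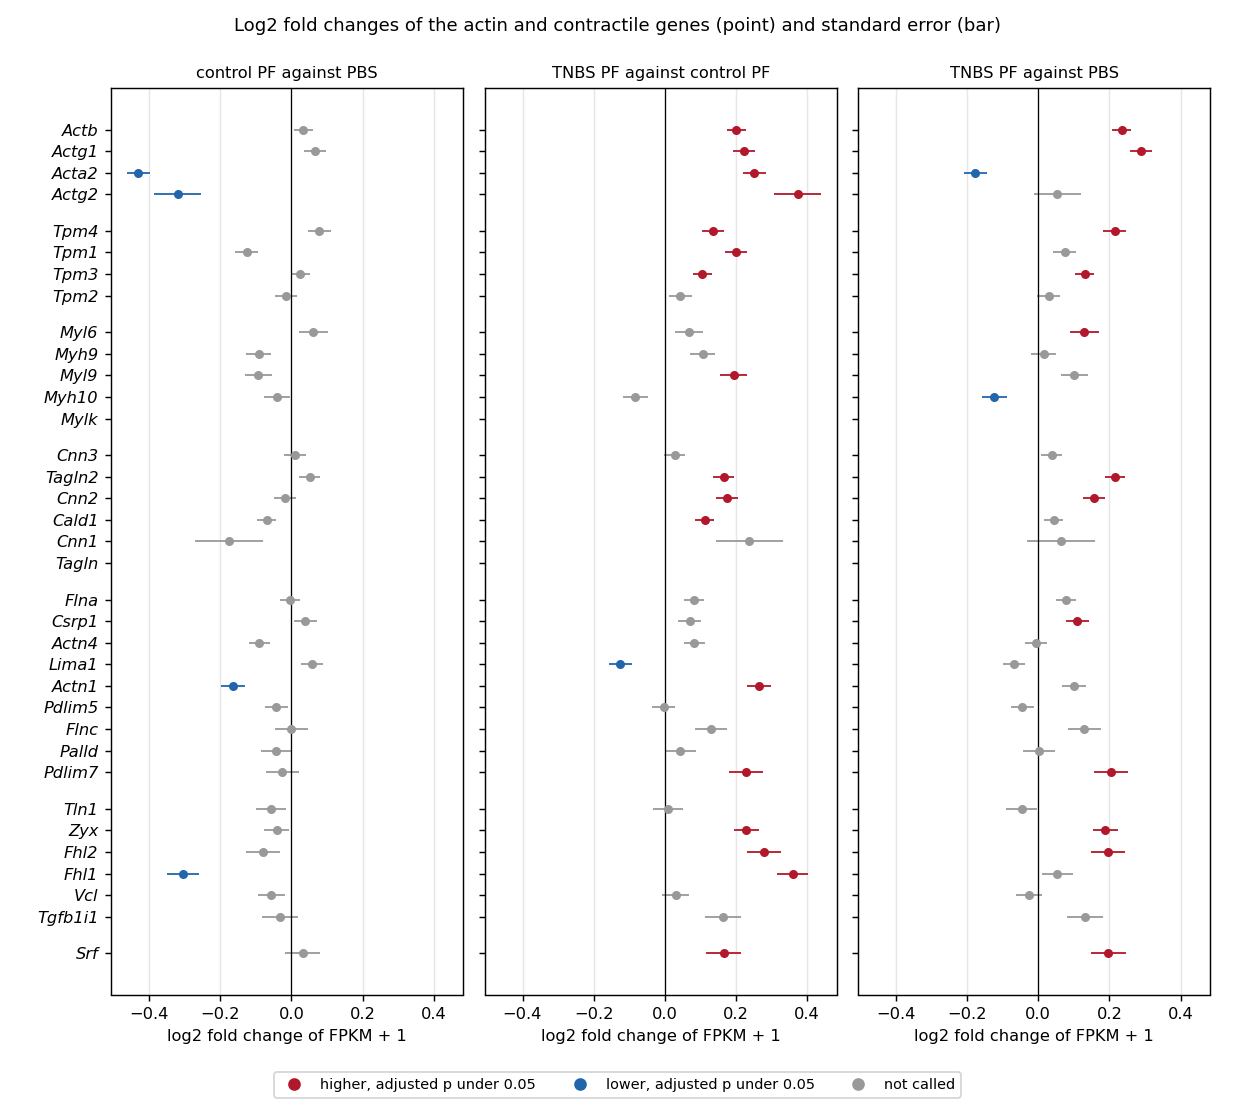
Log2 fold changes of FPKM with 1 added (points) and their standard errors (bars) for the tested genes, with 1 panel per comparison, coloured by whether the adjusted p is under 0.05. In the middle panel 17 genes are higher and Lima1 is lower, while the left panel has 4 lower genes and no higher one.

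Control PF was compared with PBS to see what peritoneal fluid as such changed. Here 4 of the 33 genes fell (12.1%, against 1.14% of all tested genes) and 0 rose (against 1.02% of all tested genes). Ranges did not overlap for 10 genes that were lower (9.32% of all tested genes) and 2 that were higher (9.33% of all tested genes). By unadjusted limma p-values under 0.05, 1 gene was higher and 9 were lower. The share of all tested genes at that threshold is not given here, so these counts cannot be set against it. Voom on the recovered fragments called 0 higher and 5 lower, against 180 higher and 194 lower of 10525 genes. The median log2 fold change was -0.04 over the 33 genes and 0.00 over all tested genes. The 4 genes that fell were Acta2, Actg2, Actn1 and Fhl1.

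Acta2 was at 260.1, 261.1 and 266.3 FPKM in PBS, where control PF libraries had 191.4 to 199.0 FPKM. No control PF library came near a PBS library. The mean fell by 25.9%, a log2 fold change of -0.43 ± 0.03 (adjusted p = 2.56e-05). Fhl1 fell by 19.9% in the mean and was at 21.7, 21.1 and 23.0 FPKM in PBS against 17.0 to 18.2 FPKM in control PF, again with no overlap (log2 fold change -0.30 ± 0.04, adjusted p = 0.00349). These calls held in all 18 alternatives.

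Actg2 was at 12.1, 11.8 and 13.6 FPKM in PBS against 9.36 to 10.6 FPKM in control PF (log2 fold change -0.32 ± 0.07, adjusted p = 0.0241). Actn1 was at 50.6, 50.4 and 52.3 FPKM in PBS against 43.5 to 46.8 FPKM in control PF (log2 fold change -0.16 ± 0.03, adjusted p = 0.0241). Groups did not overlap in either gene, but both calls were lost without control PF replicate 1, control PF replicate 2 or PBS replicate 3, which left 2 lower genes. The adjusted p-values without these libraries were 0.0969, 0.0876 and 0.0957 for Actg2 and 0.0918, 0.0531 and 0.097 for Actn1. With no minimum level, Actg2 had an adjusted p of 0.109 and Actn1 of 0.0637.

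The abundant non-muscle genes did not pass in this comparison. Actb was at 830.0, 818.7 and 835.5 FPKM in PBS and at 842.0 to 851.2 FPKM in control PF, a log2 fold change of 0.03 (adjusted p = 0.599), although the ranges did not overlap. Actg1 was at 454.4, 452.7 and 481.9 FPKM in PBS, and its range overlapped that of control PF (log2 fold change 0.07, adjusted p = 0.326). Tpm1 was at 132.9, 141.2 and 142.2 FPKM in PBS, above every control PF library, with a log2 fold change of -0.13 that missed the threshold (adjusted p = 0.0583). The log2 fold change was 0.08 for Tpm4 (adjusted p = 0.244), -0.09 for Myl9 (adjusted p = 0.245) and 0.03 for Srf (adjusted p = 0.812). Srf in PBS was at 13.4, 14.7 and 13.0 FPKM, which spans the control PF range. Zyx (30.2, 30.0 and 31.8 FPKM), Pdlim7 (13.5, 13.8 and 14.6 FPKM) and Fhl2 (24.3, 22.6 and 23.4 FPKM in PBS) did not pass either.

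**Figure D4:**
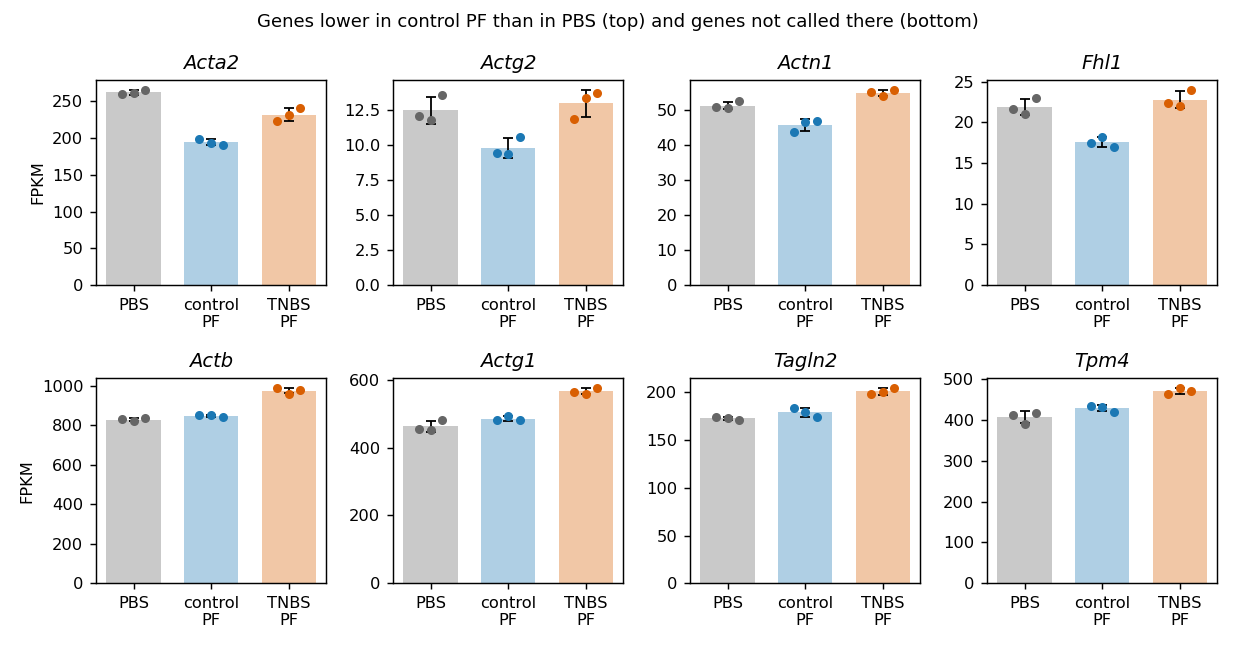
FPKM of 8 genes by group, with bars for the mean, whiskers for the SD and points for the 3 libraries. The upper genes fell from PBS to control PF and were higher again in TNBS PF, as in Acta2 with means of 262.5, 194.6 and 232.1 FPKM, while the lower genes, such as Actb at 828.1, 847.8 and 974.5 FPKM, passed only where TNBS PF is compared.

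Against PBS, TNBS PF cells had 12 higher genes of the 33 (36.4%, against 7.8% of all tested genes) and 2 lower (6.06%, against 8.88% of all tested genes). Ranges did not overlap for 19 higher genes (15.5% of all tested genes) and 3 lower ones (19.7% of all tested genes), and the median log2 fold change was 0.08. This comparison shares its TNBS PF libraries with the first comparison and its PBS libraries with the second, so the 3 sets of values are not independent. The split over all tested genes, 822 higher and 936 lower, was 1047 and 762 under median-ratio scaling and 624 and 1153 after rescaling to TPM. The higher genes were Actb, Actg1, Tpm3, Tpm4, Myl6, Tagln2, Cnn2, Csrp1, Pdlim7, Zyx, Fhl2 and Srf, with log2 fold changes from 0.11 for Csrp1 to 0.29 for Actg1. The calls of Myl6, Csrp1 and Srf were lost in 9, 8 and 3 of the 18 alternatives, with adjusted p-values of up to 0.152, 0.209 and 0.0683, and those of Cnn2, Fhl2 and Pdlim7 in 1 each, with 0.0919, 0.0511 and 0.051. Actb was 17.7% higher in the mean than in PBS (log2 fold change 0.23 ± 0.03, adjusted p = 1.08e-04).

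Acta2 went the other way: its mean in TNBS PF, 232.1 ± 8.97 FPKM, was below the 262.5 ± 3.32 FPKM of PBS (log2 fold change -0.18 ± 0.03, adjusted p = 0.00237), and no TNBS PF library reached the lowest PBS library. Myh10 was the other lower gene, at 31.9 ± 1.02 FPKM against 34.9 ± 1.24 FPKM (log2 fold change -0.12, adjusted p = 0.0331). The Myh10 call was lost without TNBS PF replicate 1, TNBS PF replicate 3 or PBS replicate 1, among other alternatives. Actg2, Actn1 and Fhl1, which were lowest in control PF, had log2 fold changes of 0.05, 0.10 and 0.05 between TNBS PF and PBS, with adjusted p-values of 0.625, 0.0582 and 0.444. A value short of the threshold does not show that these levels were equal.

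The make-up of the actin transcripts in PBS differed from that in either fluid, with a larger share of Acta2 and smaller shares of Actb and Actg1. Acta2 made up 16.7, 16.9 and 16.7% of the summed FPKM of the actin genes in PBS libraries, 12.9, 12.5 and 12.6% in control PF libraries and 12.5, 13.2 and 13.3% in TNBS PF libraries. The fluid groups overlapped each other, and both lay below PBS. Actb took 52.9 ± 0.52% in PBS, 55.2 ± 0.169% in control PF and 54.6 ± 0.6% in TNBS PF, and Actg1 took 29.6 ± 0.532%, 31.5 ± 0.356% and 31.7 ± 0.121%. Expressed as a ratio to Actb, Acta2 was 0.317 ± 0.00317 in PBS, 0.230 ± 0.00367 in control PF and 0.238 ± 0.0105 in TNBS PF. Similar shares in the fluids went with different changes in level. Against PBS, the mean of Acta2 was 25.9% lower in control PF, with Actb 2.39% and Actg1 4.71% higher. In TNBS PF the mean of Acta2 was 11.6% lower, with Actb 17.7% and Actg1 22.2% higher. The skeletal and cardiac muscle actins added almost nothing, with Actc1 listed at 0 in all libraries.

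The summed level of the 4 actin genes was 1566 ± 27.7 FPKM in PBS, 1537 ± 12.1 in control PF and 1786 ± 23.1 in TNBS PF. That of the 4 tropomyosin genes was 714.4 ± 15.4, 726.9 ± 9.32 and 799.3 ± 6.45 FPKM. For all 35 genes the sum was 4163 ± 54.1 FPKM in PBS, 4126 ± 34.2 in control PF and 4584 ± 52.5 in TNBS PF, or 1.56, 1.53 and 1.69% of all FPKM. These sums are carried by the abundant non-muscle genes. They are given without a test, since the genes were chosen with results known.

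**Figure D5:**
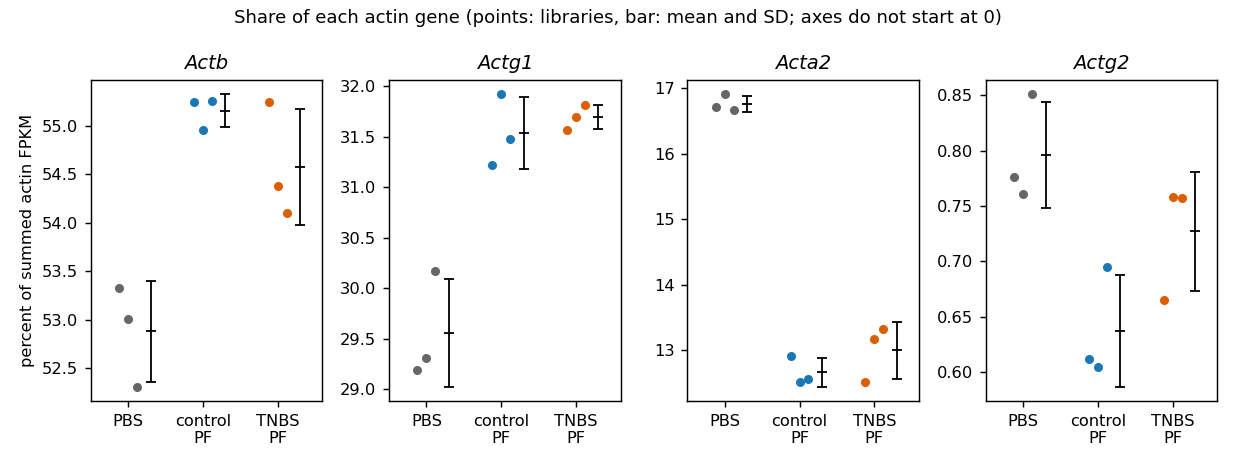
Percent of the summed FPKM of the actin genes taken by Actb, Actg1, Acta2 and Actg2 in each library (points), with the mean and SD of each group beside them and axes that do not start at 0. Acta2 lies at 16.7 to 16.9% in PBS libraries and at 12.5 to 13.3% in the libraries of both fluids.

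Regulators and partners of these genes changed in part. Of 5 tested genes for SRF cofactors, 0 rose and 1 fell in TNBS PF against control PF by limma. Of all tested genes, 5.15% rose and 5.45% fell. The counts of the 5 were the same by voom, where 694 of 10525 genes were higher and 856 lower. They were also the same at an unadjusted p under 0.05. The gene that fell was Elk1, a ternary complex factor, from 8.32 to 7.14 FPKM (log2 fold change -0.19, adjusted p = 0.0168), a call lost without control PF replicate 1, TNBS PF replicate 1 or TNBS PF replicate 3.

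Of 37 tested genes of filament assembly and turnover, 8 rose and 1 fell (21.6% and 2.7%, against 5.15% and 5.45% of all tested genes). Profilin 1 (Pfn1), which delivers monomers to growing ends, rose from 117.3 to 134.9 FPKM (log2 fold change 0.20). The bundling protein gene Fscn1 rose by 0.18 and ezrin (Ezr) by 0.17 on the log2 scale. Cap2, counted among the 8, rose from 0.826 to 1.23 FPKM (0.29). All of its control PF values were under the 1 FPKM minimum (0.897, 0.789 and 0.793). It passed the minimum only through groups where it was higher, so its call is given without weight. The gene that fell was Gsn, a filament-severing protein, with a log2 fold change of -0.13 (adjusted p = 0.0287), named after its value was seen. Of 30 other tested focal adhesion genes, 6 rose and 1 fell (20% and 3.33%). Among them Ajuba rose from 10.9 to 13.6 FPKM (0.30), Pdlim1 by 0.23 and Parvb by 0.16 on the log2 scale, while Sorbs3 had a log2 fold change of -0.24. Without any 1 of the control PF or TNBS PF libraries, the count of higher genes dropped to 2 or 3 for focal adhesion. The assembly count dropped to 4 without control PF replicate 2 or 3 or any TNBS PF library.

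In control PF against PBS, where 1.02% of all tested genes rose and 1.14% fell, limma called 0 of the 5 SRF cofactor genes. At an unadjusted p under 0.05, 2 of them were higher and 0 lower. Voom called 0, against 180 higher and 194 lower of 10525 genes. In the assembly list 1 gene rose, the monomer-binding thymosin gene Tmsb10 (565.1 to 652.7 FPKM, log2 fold change 0.21, adjusted p = 0.0128), and 2 fell, Cap2 (1.38 to 0.826 FPKM, log2 fold change -0.38, adjusted p = 0.0139) and the Arp2/3 subunit gene Arpc2 (log2 fold change -0.14, adjusted p = 0.031). Cap2 was under the minimum in every control PF library and entered the test only through the other groups, so its fall is given without weight. Of the other focal adhesion genes, Csrp2 rose (0.16, adjusted p = 0.0417). In TNBS PF against PBS, 7.8% of all tested genes rose and 8.88% fell. There, 1 of the 5 SRF cofactor genes rose, Elk3 (log2 fold change 0.12, adjusted p = 0.0224), and 0 fell. The counts were the same by voom (954 higher and 1212 lower of 10525 genes) and at an unadjusted p under 0.05. In the same comparison 9 assembly genes rose and 1 fell (24.3% and 2.7%). Of the focal adhesion genes 4 rose and 3 fell (13.3% and 10%), the latter share being near that of all genes.

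In the authors' deposited table, 0 of the 35 genes were called in any of the 3 comparisons. The rule for those calls and the share of all genes called are not given here. The count of 0 therefore does not show that these genes were unchanged in the authors' values. The largest absolute log2 fold changes there were 0.426 between TNBS PF and control PF, 0.632 between control PF and PBS, and 0.597 between TNBS PF and PBS. Those from comparisons with PBS belong to Tagln, which had 3 to 12 fragments per library.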

How the data were processed

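RNA-seq of 9 libraries was used. Per the submitters' processing notes, reads were trimmed with cutadapt 1.15 and the build was mm10. Sources used here do not give the aligner, counter or strand setting. The authors deposited FPKM per gene and library, and these were tested. The authors' deposited log2 fold changes and their calls were only copied, and the deposited p-values were not used. Multiplying FPKM by GENCODE M21 exon lengths (21902 genes, 57 without a length) gave whole fragments within 0.01 for 97.2 to 97.4% of values, from which depth was recovered. One fragment in 1 kb was worth 0.0391 to 0.056 FPKM, which limits the precision of low genes.

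Tests used limma 3.58.1 in R 4.3.3 on log2(FPKM + 1), which understates changes of low genes. Genes with at least 1 FPKM in at least 3 libraries entered (10537), and all 9 libraries shared 1 model with a mean-variance trend. P-values were two-sided and adjusted by Benjamini and Hochberg over all tested genes, with a threshold of 0.05. Counts at an unadjusted p under 0.05 are given without the share of all tested genes. The median SE of a log2 fold change was 0.0545. The procedure was also run on simulated counts with the same dispersion for every gene. The outcome is not given here and is not used as support for changes of this size. Libraries of a group differed beyond sampling noise (chi-square per degree of freedom 2.61 to 4.44), so none was merged.

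The members and lists were chosen with earlier results of these data known. Values per library are given for members past the threshold in TNBS PF against control PF or control PF against PBS and with a log2 fold change of 0.2 or more in size, and for Actb, Acta2 and Srf. Up to 4 genes were named from each other list, and 1 list is not reported here. Lima1, Mylk, Tagln, Tagln2, Gsn and the mesothelial and macrophage genes were added after their values were seen. Shared sequence was the percent of 50-base stretches of a transcript found in transcripts of another gene. There were 18 alternatives: another pseudocount, 2 filters, TPM, median-ratio and quantile scaling, the compared groups only, a replicate block, omission of each library, and voom on recovered fragments, the last chosen after seeing the data.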

Additional observations from a re-analysis of the deposited data

How the results depend on the processing

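Across the 18 alternatives no member changed direction in a call. In TNBS PF against control PF the count of higher members was 17, and 13 to 18 when 1 library was left out. The count of lower members was 1, and 0 to 1. For control PF against PBS, 0 members were higher in every alternative, and 4 were lower, 2 to 5 with 1 library left out and 2 with no filter. For TNBS PF against PBS, 12 were higher, 8 to 13 with 1 library left out, and 2 were lower, 1 to 2 with 1 library left out. That last count was 1 under median-ratio scaling and 1 with only the compared groups in the model. Where a library is left out, fewer samples enter the test, and for the other settings the cause was not tested.

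The labels number the libraries of each group from 1 to 3. Deviations of libraries with the same number correlated between -0.0978 and 0.0746 over 9 pairs, so the numbers were not taken as pairing, and 5 of 9 libraries correlated best with one of their own number. With a replicate block, 15 members were higher and 1 lower in TNBS PF against control PF, 0 and 4 in control PF against PBS, and 12 and 1 in TNBS PF against PBS.

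Fragment number limits Tagln and Mylk. Genes that share sequence with copies (Actg1, Tpm3) depend on how the authors' counting placed such reads. To a lesser degree this holds for Myl6 (18.5% of stretches shared), Cnn3 (16.4%), Actb (14.2%) and Tpm4 (12.1%). Exons of other genes also cover 25.5% of the Vcl exon bases.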

Other observations

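Actb is often used to scale other transcripts, so its change was set beside 10 other genes used for that purpose. In TNBS PF against control PF, 1 of these 10 rose by limma (10%, against 5.15% of all tested genes) and 0 fell (against 5.45%). The gene that rose was Hprt, from 121.0 to 130.2 FPKM (log2 fold change 0.11, adjusted p = 0.029), while the log2 fold change of Actb was 0.20. In control PF against PBS, where 1.02% of all tested genes rose and 1.14% fell, none of the 10 passed. There, 1 was lower at an unadjusted limma p under 0.05 and 1 was lower by voom (194 of 10525 genes were lower by voom). In TNBS PF against PBS, Hprt and Ywhaz rose, by 0.09 and 0.10 on the log2 scale (20%, against 7.8% of all tested genes). By limma, 0 of the 10 fell (against 8.88%). By voom, 1 was higher and 2 were lower, against 954 higher and 1212 lower of 10525 genes. At an unadjusted limma p under 0.05, 2 were higher and 1 was lower. A level expressed relative to Actb would carry the difference of Actb between the fluids.

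Markers of muscle were near the floor in the same libraries. Of 26 genes of smooth and striated muscle, 10 were listed at 0 in all 9 libraries and 23 had means under 1 FPKM. The smooth muscle genes that were present, Smtn at 6.65 to 7.50 FPKM in group means and Lmod1 at 2.26 to 2.30, did not pass in TNBS PF against control PF. Acta2 at 194.6 to 262.5 FPKM thus stood beside Myh11 and Des at under 1 FPKM. Tagln was also listed at under 1 FPKM, but exons of another annotated gene cover 67.9% of its exon bases. The part of this overlap in the low value was not tested, so the value is not taken as absence of Tagln.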
